A study of Sus scrofa with 10 samples.

Results

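The 8 genes described here belong to transforming growth factor beta (TGF-beta) signalling in the pig aortic valve leaflet. They are the ligands TGFB1, TGFB2 and TGFB3, the co-receptor TGFBR3, the decoy receptor BAMBI, and the targets ID1, ID2 and ID3. They were chosen by name, as genes with a probe set whose array annotation gives exactly 1 symbol. They are 8 of 6765 such genes, and 14 of the 23999 probe sets tested, controls left out, carry their symbols. A probe set is a group of short probes that reads 1 transcript. The brightest probe set over the 10 arrays stands for its gene, and the others are given beside it.

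RNA was hybridised to Affymetrix porcine arrays, 1 colour and 1 sample per array. The samples were leaflets of female swine, 4 from adult Rapacz Familial Hypercholesterolemic (RFH) animals aged 2 years, 3 from juvenile RFH animals aged 3 months and 3 from juvenile wild-type (WT) animals aged 3 months. RFH swine have inherited high blood cholesterol. The WT animals were Rapacz Wisconsin Miniature Swine, marked RFH -/-. All ate standard chow, and leaflets were taken after exsanguination and kept in RNAlater. Adult RFH was compared with juvenile RFH, which bears on age in hypercholesterolemic valves, and juvenile RFH with juvenile WT, which bears on genotype at a young age. Without adult WT arrays, age and time spent with high cholesterol cannot be told apart. The labels do not state that every array is a separate animal, so p-values measure the spread between arrays as labelled.

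TGF-beta ligands are secreted in latent complexes, and once released they bind pairs of receptor kinases that phosphorylate SMAD2 and SMAD3. Bone morphogenetic proteins (BMPs), relatives of the TGF-betas, signal mainly through SMAD1 and SMAD5, which switch on the ID genes in many cells. In valve leaflets, TGF-beta is known for turning interstitial cells, the fibroblast-like cells that keep the matrix, into contractile myofibroblasts.

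In adult RFH leaflets, against juvenile RFH leaflets, 3 of the 8 genes rose (TGFB1, BAMBI and ID3), 3 fell (TGFBR3, ID1 and ID2), and TGFB2 and TGFB3 did not pass the test. Across all 6765 genes, 11.4% rose and 7.85% fell. The median change of the 8 genes was -0.24 on the log2 scale, against 0.02 over all genes. For 5 of the 8 genes the adult and juvenile RFH arrays did not overlap, as was the case for 29.9% of all genes. A gene is said to rise or fall where limma's p fell under 0.05 after Benjamini-Hochberg adjustment across the 23999 probe sets. All values below are on the deposited log2 scale, where a difference of 1 is a doubling, and standard errors (SE) are limma's.

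**Figure D1:**
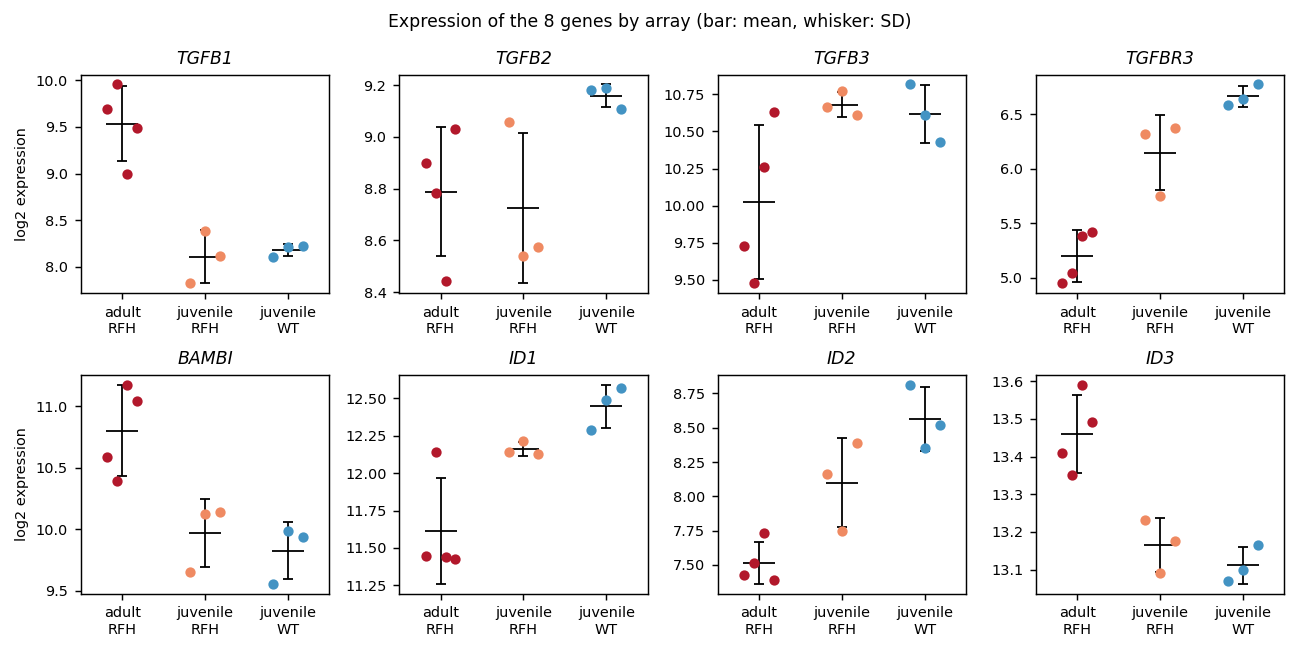
Expression of the 8 genes, with log2 expression on the y axis (the range differs between panels) and 1 point per array, for adult RFH (4 arrays), juvenile RFH (3) and juvenile WT (3). Bars are group means and whiskers are SD. The adult arrays of TGFB1, BAMBI and ID3 lie above all juvenile arrays, and those of TGFBR3 and ID2 lie below all juvenile arrays.

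TGFB1, the ligand most studied in fibrosis, had the largest change of the 8 genes. Its brightest probe set read 9.69, 9.95, 9.0003 and 9.49 in the adult RFH arrays, against 7.82, 8.39 and 8.12 in the juvenile RFH arrays. Every adult array was above every juvenile array. The means were 9.53 ± 0.40 in adult RFH and 8.11 ± 0.28 in juvenile RFH leaflets (SD, n = 4 and 3). The change was 1.42 (SE 0.20, 95% interval 0.98 to 1.87), which is 2.68-fold, with an adjusted p of 0.00147 by limma.

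The second TGFB1 probe set gave a smaller change in the same direction. It read 8.67, 8.70, 8.33 and 8.59 in adult RFH, against 7.57, 7.84 and 7.98 in juvenile RFH arrays, again without overlap. Its change was 0.77 (SE 0.13), or 1.71-fold, with a limma adjusted p of 0.00386. These probe sets of 1 gene differ in size of change, so the fold is best read as a range between them. In bulk leaflet RNA, more cells that express a gene and more RNA per cell cannot be told apart, here and in all results that follow.

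TGFB2, a ligand that depends on TGFBR3 for efficient receptor binding, did not pass the test. It read 8.90, 8.78, 8.44 and 9.03 in adult RFH, against 9.06, 8.54 and 8.57 in juvenile RFH arrays, and the groups overlapped. The change was 0.06, with a 95% interval from -0.28 to 0.41 and a limma adjusted p of 0.823. Of the 3 other TGFB2 probe sets, 2 changed by 0.08 and 0.12 with overlapping groups. The dimmest read 6.36, 6.07, 6.01 and 6.26 in adult RFH, against 6.84, 6.48 and 6.42 in juvenile RFH arrays. It lay lower in all 4 adult arrays, by 0.40 (limma adjusted p = 0.0519), so the 4 TGFB2 probe sets did not all lean the same way.

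TGFB3, the remaining ligand, read 9.73, 9.48, 10.26 and 10.63 in adult RFH, against 10.66, 10.77 and 10.61 in juvenile RFH arrays. Adult arrays 1 and 2 were more than 0.8 below the juvenile arrays, and adult array 4 lay among them. The mean was 10.02 ± 0.52 in adult RFH and 10.68 ± 0.08 in juvenile RFH leaflets (SD, n = 4 and 3). The change was -0.66 (95% interval -1.17 to -0.14), with a limma adjusted p of 0.0791. Without adult array 4 it was -0.86, with a limma adjusted p of 0.0123. With any other array left out TGFB3 did not pass, with limma adjusted p values up to 0.18. The dim second TGFB3 probe set changed by -0.11 (limma adjusted p = 0.735).

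The ligands were also compared with one another inside each array, as the difference between 2 genes' log2 values, so that only their changes are compared and not their levels. TGFB1 changed by 1.36 more than TGFB2 and by 2.08 more than TGFB3 between adult and juvenile RFH arrays. In both pairs all 4 adult arrays were above all 3 juvenile arrays, and the exact two-sided permutation p was 0.0286, the smallest that 4 against 3 arrays allow. TGFB2 changed by 0.72 more than TGFB3 (exact permutation p = 0.143). After adjustment over the 12 pair tests, which cover ligands and ID genes in both comparisons, these became 0.114, 0.114 and 0.245 (exact permutation). With so few arrays, the adjusted p could not have fallen under 0.05 for any pair, whatever its values. The adjusted pair tests therefore decide nothing about these genes.

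TGFBR3, or betaglycan, is a membrane proteoglycan that presents TGF-beta ligands to the signalling receptors. Its only probe set read 4.95, 5.05, 5.38 and 5.43 in adult RFH, against 6.32, 5.75 and 6.37 in juvenile RFH arrays. No adult array reached a juvenile one. The change was -0.95 (SE 0.17, 95% interval -1.32 to -0.57), a 1.93-fold lower level in adult RFH leaflets, with a limma adjusted p of 0.00473. Both group means lie below the array medians of 6.96 to 7.03, a range in which background left in the signal can compress differences, so the size of this change is uncertain.

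BAMBI is a transmembrane protein built like a type I receptor without a kinase, and it dampens TGF-beta and BMP signalling. Its brightest probe set read 10.59, 10.40, 11.18 and 11.05 in adult RFH, against 9.65, 10.12 and 10.14 in juvenile RFH arrays, with no overlap. BAMBI rose by 0.83 (SE 0.21, 95% interval 0.38 to 1.28), which is 1.78-fold, with a limma adjusted p of 0.0204. The second probe set read 8.40, 8.31, 8.68 and 8.98 in adult RFH, against 7.70, 7.97 and 7.80 in juvenile RFH arrays. Its change was 0.77 (SE 0.16), with a limma adjusted p of 0.0102, so the BAMBI probe sets gave similar sizes. Without juvenile RFH array 1, where BAMBI was lowest, the change of the brightest set was 0.67 and the limma adjusted p 0.0900.

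**Figure D2:**
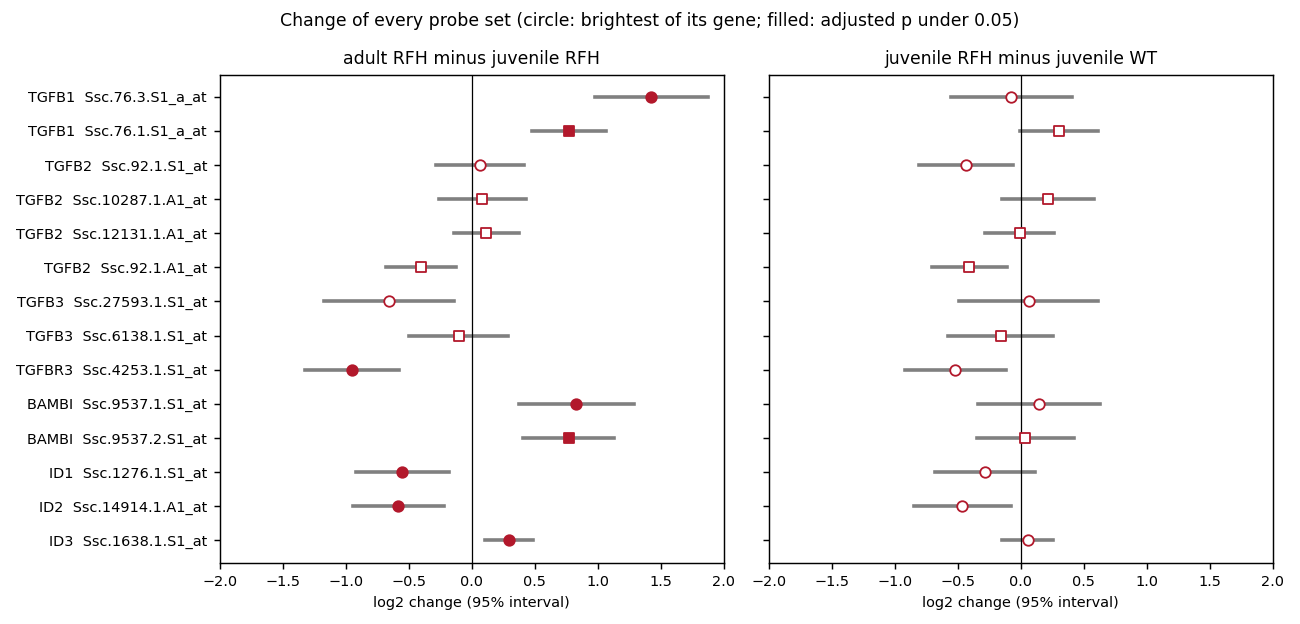
Log2 change of each of the 14 probe sets (x axis) with its 95% interval, for adult RFH minus juvenile RFH on the left and juvenile RFH minus juvenile WT on the right. Circles are the brightest probe set of a gene, squares the others, and filled symbols have an adjusted p under 0.05. On the left both TGFB1 and both BAMBI probe sets lie above 0, and on the right no symbol is filled.

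The ID proteins are helix-loop-helix factors without a DNA-binding region, which hold back other transcription factors by pairing with them. All 3 passed the test between adult and juvenile RFH leaflets, but not in 1 direction. ID1 and ID2 fell, by 1.46-fold and 1.50-fold, and ID3 rose by 1.23-fold. Each of these calls lay close to the threshold.

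ID1 read 11.44, 12.14, 11.44 and 11.42 in adult RFH, against 12.14, 12.22 and 12.13 in juvenile RFH arrays. Adult arrays 1, 3 and 4 were nearly equal and well below the juvenile arrays, and adult array 2 lay within the juvenile range. The change was -0.55 (SE 0.17, 95% interval -0.92 to -0.18), with a limma adjusted p of 0.0471. Without adult array 2 the change was -0.73 and the limma adjusted p 0.00134. Without any of the other 9 arrays in turn, the limma adjusted p lay between 0.0622 and 0.118, so the ID1 call did not hold.

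ID2 read 7.43, 7.52, 7.73 and 7.39 in adult RFH, against 8.16, 7.75 and 8.39 in juvenile RFH arrays. The groups did not overlap, with adult array 3 only just under juvenile array 2. The change was -0.58 (SE 0.16, 95% interval -0.94 to -0.22), with a limma adjusted p of 0.0335. The ID2 call held without adult array 3, juvenile RFH array 2, WT array 1 or WT array 2. It was lost without adult array 1 (limma adjusted p = 0.0692), adult array 2 (0.0603), adult array 4 (0.0633), juvenile RFH array 1 (0.108), juvenile RFH array 3 (0.136) or WT array 3 (0.0526).

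ID3 read 13.41, 13.35, 13.59 and 13.49 in adult RFH, against 13.23, 13.09 and 13.18 in juvenile RFH arrays. All adult arrays were higher, by a small margin with a small spread. The change was 0.29 (SE 0.09, 95% interval 0.10 to 0.49), with a limma adjusted p of 0.0416. The ID3 call held without adult array 2 (0.0355), while leaving out any of the other 9 arrays gave limma adjusted p values of 0.0523 to 0.131.

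Within arrays, ID1 and ID2 changed alike, with a difference of 0.03 between their changes (exact permutation p = 0.886). ID1 changed by -0.84 and ID2 by -0.88 relative to ID3, and in both pairs the adult arrays lay below all juvenile RFH arrays. The exact two-sided permutation p values were 0.0571 for ID1 against ID3 and 0.0286 for ID2 against ID3. Adjusted over the 12 pair tests, they were 0.171 and 0.114 (exact permutation), an adjustment under which no pair could have passed.

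**Figure D3:**
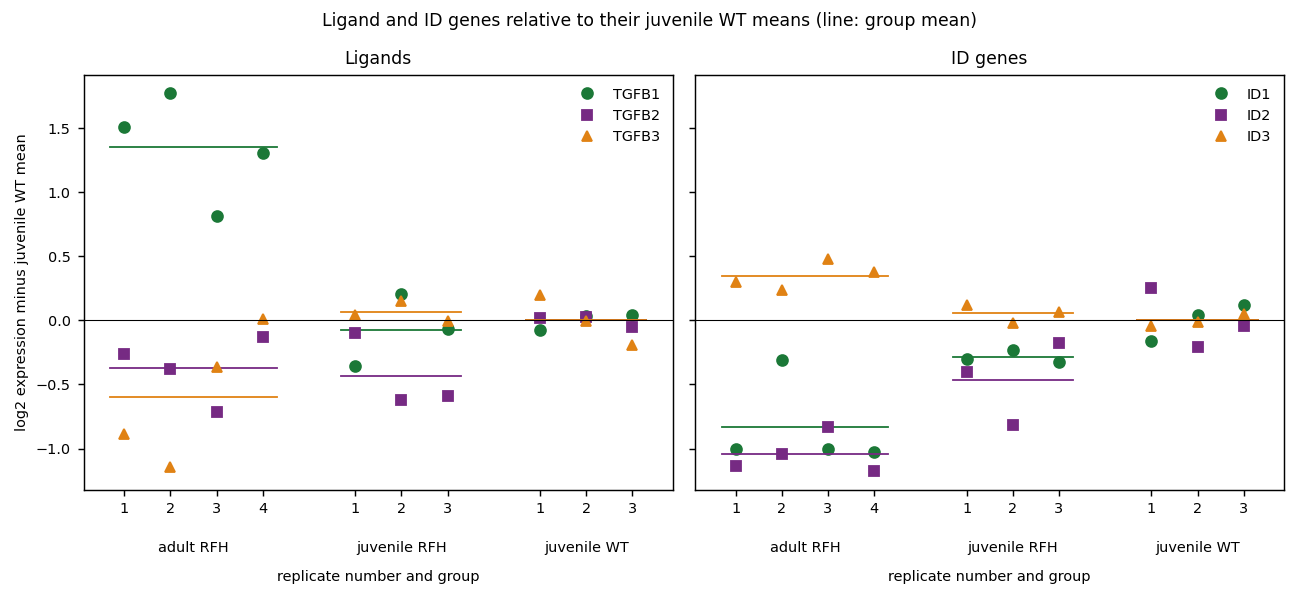
Log2 expression of each ligand (left) and each ID gene (right) minus that gene's juvenile WT mean, on the y axis, for every array by group and replicate number on the x axis. Lines are group means. In the adult RFH arrays TGFB1 stands above 0 while TGFB3 is near or below it, and ID3 stands above 0 while ID1 and ID2 are below it.

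**Figure D4:**
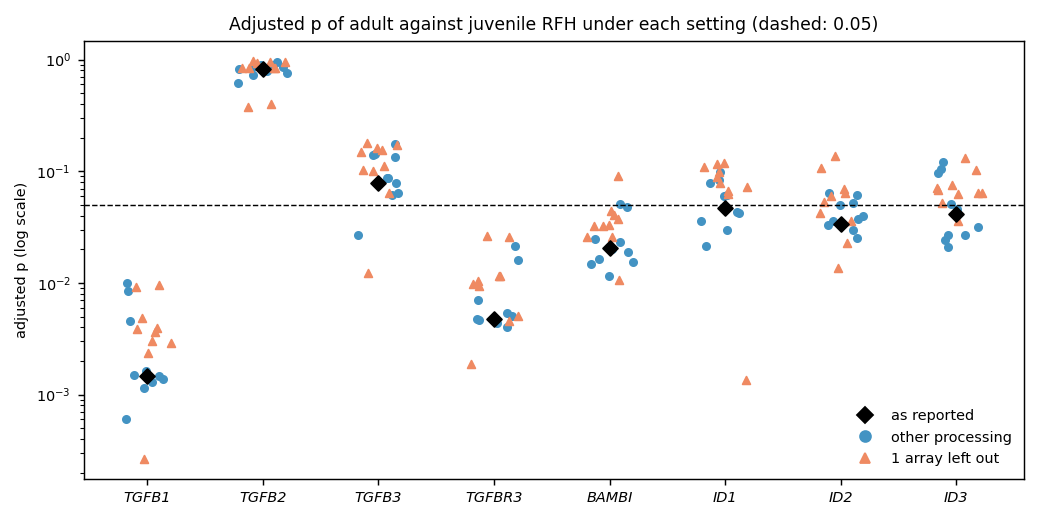
Limma adjusted p (y axis, log scale) of each gene in adult against juvenile RFH leaflets, as reported and under other processing settings or with 1 array left out. The dashed line is 0.05. All points of TGFB1 and TGFBR3 lie below the line, those of TGFB2 lie above it, and those of ID1, ID2 and ID3 spread across it.

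The adult arrays were not uniform, and several of these genes ran with other readings across them. TGFB3 was lower in adult arrays 1 and 2 than in adult arrays 3 and 4, as were BAMBI and TGFBR3, while TGFB1 was highest in adult arrays 1 and 2. The mean of 8 macrophage markers was 11.46, 11.58, 10.93 and 10.86 in adult arrays 1 to 4. It was between 10.40 and 10.41 in juvenile RFH arrays and between 9.88 and 10.04 in juvenile WT arrays. Of the 8 macrophage markers 5 rose in adult RFH leaflets, beside 11.4% of all genes. TYROBP was up by 1.29 (limma adjusted p = 0.00329) and CD14 by 0.92 (0.00206). The mean of 9 valve interstitial markers ran the other way, at 11.74, 11.55, 11.94 and 12.03 in adult arrays. It was 12.15 to 12.19 in juvenile RFH and 12.24 to 12.28 in juvenile WT arrays. Of the 9 markers 3 fell in adult RFH leaflets, beside 7.85% of all genes. TGFB1 and the macrophage mean were both highest in adult arrays 1 and 2. Both were also higher in all adult than in all juvenile RFH arrays. The same held for the mean of 5 adipocyte markers, at 8.23, 7.93, 7.44 and 7.26 in adult arrays 1 to 4. The mean of 8 endothelial markers was 9.42, 9.59, 8.69 and 9.22 in these arrays. Within each of the 3 groups it ranked the arrays as the brightest TGFB1 probe set did, although its adult and juvenile RFH arrays overlapped. The second TGFB1 probe set shared that order in the adult arrays but in neither juvenile group. In juvenile RFH arrays 1 to 3 that set read 7.57, 7.84 and 7.98, against endothelial means of 8.56, 8.88 and 8.67. BAMBI was lowest in adult arrays 1 and 2, and it was higher in all adult than in all juvenile RFH arrays. The macrophage means of the 2 juvenile groups did not overlap. Between these groups TGFB2, TGFBR3 and ID1 did not overlap, and TGFB1, TGFB3, BAMBI, ID2 and ID3 did. The part of cell composition in the changes of the 8 genes was not tested.

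Other marker lists also differed between adult and juvenile RFH leaflets. Of the 55 markers over all lists 10 rose and 7 fell, which is 30.9% called, beside 19.3% of all genes. Of 8 endothelial markers 2 rose, VWF and TIE1, and ERG fell, and the list mean ran from 8.69 to 9.59 in adult RFH and from 8.56 to 8.88 in juvenile RFH arrays. Of 5 adipocyte markers 3 rose, with list means of 7.26 to 8.23 in adult RFH and 6.48 to 6.62 in juvenile RFH arrays. FABP4 rose by 3.83 (limma adjusted p = 0.00213), LPL by 1.17 (0.0354) and CFD by 0.79 (0.0372), while ADIPOQ averaged 4.20 in adult RFH and 4.08 in juvenile RFH leaflets and LEP 7.30 and 7.43, and neither passed. Of 3 erythroid markers 2 fell, and of 5 smooth muscle markers ACTA2 fell. ACTA2, and POSTN among the interstitial markers that fell, are the same probe sets that are given below as pathway targets. None of 7 T and B cell markers passed the limma test, with list means of 5.28 to 6.56 in adult RFH arrays, below the array medians. The interstitial markers VIM, LUM and DCN averaged between 13.7 and 14.4 in both RFH groups, the upper end of the scale. The poly-A spike-in control probe sets averaged 7.37 ± 0.18 in adult RFH and 6.53 ± 0.01 in juvenile RFH arrays (SD, n = 4 and 3, exact permutation p = 0.0286), while control genes read from both ends differed, 3′ minus 5′, by 2.24 ± 0.45 in adult RFH and 2.25 ± 0.14 in juvenile RFH arrays (exact permutation p = 0.943). The part of these control readings in the changes was not tested.

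Juvenile RFH array 2 stood apart in its cardiac muscle transcripts, at a mean of 9.12 over 10 markers. That mean was 5.18 and 5.67 in juvenile RFH arrays 1 and 3 and 5.28 to 5.63 in the adult arrays. Juvenile RFH array 2 also had the lowest juvenile RFH values of TGFBR3 (5.75, against 6.32 and 6.37) and ID2 (7.75, against 8.16 and 8.39). Without it, the limma adjusted p was 0.00289 for TGFB1, 0.00188 for TGFBR3, 0.0377 for BAMBI and 0.0137 for ID2, which kept their calls. It was 0.118 for ID1 and 0.131 for ID3, which lost theirs. The changes without it were 1.56 for TGFB1, -1.15 for TGFBR3, 0.90 for BAMBI, -0.76 for ID2, -0.52 for ID1 and 0.26 for ID3.

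The wider pathway was read from a list of 105 other genes sorted by role, of which 45 had a probe set with exactly 1 symbol. SMAD6, SMAD7, TGFBR2 and JUNB were not analysed here. In adult RFH against juvenile RFH leaflets, 6 of the 45 rose, 6 fell, and for 33 the test was not passed. Their median change was -0.01. That is 26.7% called, beside 19.3% of all genes.

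Of 11 genes named as other ligands, 0 rose and 2 fell. The first, BMP1, is no ligand despite its name but a metalloprotease that trims procollagens and helps free latent TGF-beta, and it fell by 0.68 (limma adjusted p = 0.0328). GDF9, an ovarian growth factor and the only ligand among them to pass, read below the array medians and fell by 0.39 (limma adjusted p = 0.0434). INHBB, BMP7, BMP15, GDF11, MSTN and AMH, which did not pass, averaged 4.21 to 5.83 in adult RFH leaflets. They read further below the medians than GDF9, so their misses say little. The BMP1 call was lost without juvenile RFH array 1 (0.107), 2 (0.0842) or 3 (0.0723), adult array 2 (0.0625) or WT array 2 (0.0502), and the GDF9 call held only without adult array 3, adult array 4 or juvenile RFH array 2, with limma adjusted p values of 0.0563 to 0.153 without any other array.

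Of 8 signalling receptors only ACVR1B, an activin type I receptor that phosphorylates SMAD2 and SMAD3, passed. It read 10.63, 11.33, 11.05 and 10.03 in adult RFH, against 10.03, 9.84 and 9.95 in juvenile RFH arrays, so 3 of 4 adult arrays were clearly higher and the fourth was not. It rose by 0.82 (limma adjusted p = 0.0460). That call held only without adult array 4 (0.00293), and leaving out any of the other 9 arrays gave 0.0656 to 0.119. TGFBR1, the type I receptor for TGF-beta, changed by 0.19 (limma adjusted p = 0.301), and ENG, the endothelial co-receptor endoglin, by 0.17 (0.37). ACVR2A, ACVR2B and BMPR1B also did not pass, and they averaged only 5.29 to 5.76 in adult RFH leaflets, below the array medians.

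Of 3 SMAD genes measured, 1 rose and 1 fell. SMAD3, which carries TGF-beta and activin signals, read 7.91, 8.32, 8.55 and 8.09 in adult RFH, against 7.63, 7.50 and 7.16 in juvenile RFH arrays, and rose by 0.79 (SE 0.16, limma adjusted p = 0.00828). SMAD1, which carries BMP signals, read 9.68, 9.28, 9.28 and 9.62 in adult RFH, against 10.04, 10.17 and 10.23 in juvenile RFH arrays, and fell by 0.68 (SE 0.12, limma adjusted p = 0.00520). Neither gene's groups overlapped, and both calls held with any 1 array left out. SMAD4, the partner shared by both branches, changed by 0.15 (limma adjusted p = 0.296).

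Among 6 genes of latency, activation and extracellular inhibition, ITGAV fell and FSTL3 rose. ITGAV, the integrin chain that helps release active TGF-beta from its latent complex, read 9.04, 9.18, 8.75 and 9.22 in adult RFH, against 10.03, 9.86 and 10.15 in juvenile RFH arrays, a 1.95-fold fall (limma adjusted p = 0.000786). FSTL3, which binds and blocks activins, read 10.23, 10.67, 11.23 and 10.26 in adult RFH, against 9.51, 9.40 and 9.61 in juvenile RFH arrays, a 2.13-fold rise (limma adjusted p = 0.00607). BGN, a proteoglycan that binds TGF-beta, was lower in all adult arrays by 0.75 (limma adjusted p = 0.0568) and did not pass. Without adult array 3 BGN passed, with -0.97 (0.00578). With any other array left out BGN did not pass, with limma adjusted p values up to 0.147.

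Of 5 intracellular regulators TGIF1, a repressor that works with SMAD2 and SMAD3, rose by 1.04 (SE 0.16, limma adjusted p = 0.00201), with 11.23, 11.15, 11.55 and 11.22 in adult RFH, against 9.97, 10.35 and 10.41 in juvenile RFH arrays. PMEPA1, a target and brake of the pathway, was lower in all adult arrays by 0.66 (limma adjusted p = 0.0645). It passed without adult array 3 (0.0138) or adult array 4 (0.0378), but not with any other array left out (up to 0.155). HES1, a helix-loop-helix repressor that pairs with ID proteins, was the only 1 of 4 partners to pass, with a rise of 1.10 (SE 0.22, limma adjusted p = 0.00744). The other partners, TCF4, MYF5 and MYOD1, averaged 4.98, 2.96 and 3.54 in adult RFH leaflets. These levels are far below the array medians, so their misses say little.

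Of 8 other SMAD-induced targets, among them ID4, the remaining ID gene, 1 rose and 2 fell, so those that passed did not share a direction. ID4 changed by 0.20 (limma adjusted p = 0.223). KLF10, an early TGF-beta response gene, read 11.39, 11.08, 10.45 and 11.31 in adult RFH, against 10.14, 10.01 and 9.86 in juvenile RFH arrays, a 2.08-fold rise (limma adjusted p = 0.00592). POSTN, the matrix protein periostin, read 12.59, 12.28, 12.87 and 13.30 in adult RFH, against 13.72, 13.94 and 13.82 in juvenile RFH arrays, a 2.09-fold fall (limma adjusted p = 0.00570). ACTA2, the smooth muscle actin of myofibroblasts, read 11.70, 10.89, 11.88 and 11.57 in adult RFH, against 12.78, 12.46 and 12.29 in juvenile RFH arrays, a 2.00-fold fall (limma adjusted p = 0.0103). All 4 adult arrays were thus higher in TGFB1 and lower in POSTN and ACTA2 than all juvenile RFH arrays. The ACTA2 call was lost without juvenile RFH array 1 (0.0507), and the POSTN change was -2.08 when all its probe sets were averaged.

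**Figure D5:**
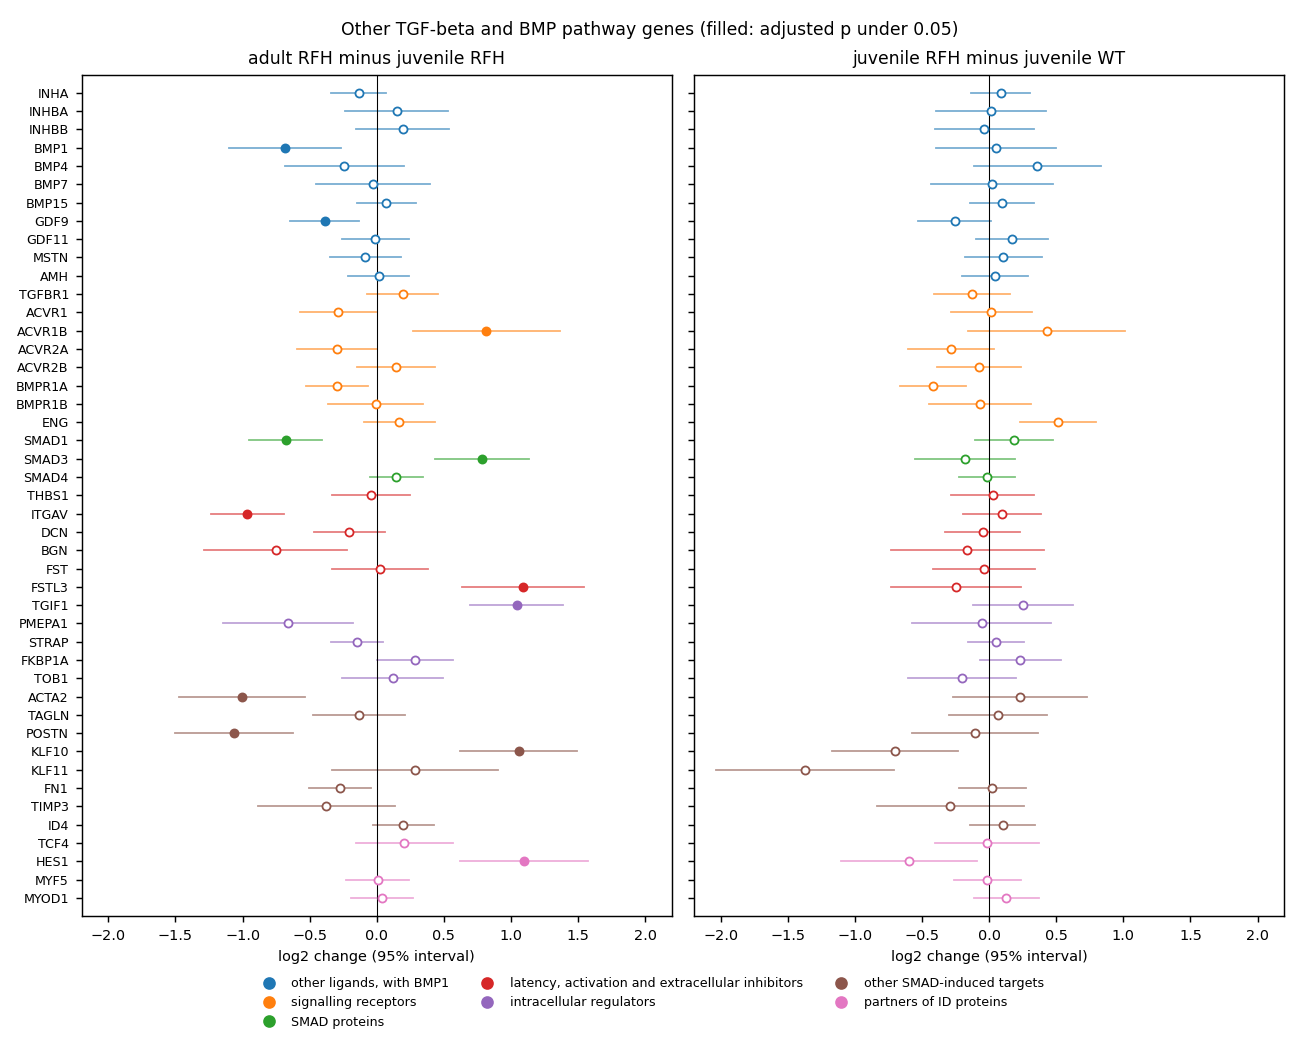
Log2 change (x axis) with its 95% interval of the 45 other pathway genes, coloured by role, for adult RFH minus juvenile RFH on the left and juvenile RFH minus juvenile WT on the right. Filled symbols have an adjusted p under 0.05. The left panel holds 6 filled genes above 0 and 6 below it, and the right panel holds none.

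In juvenile RFH against juvenile WT leaflets, 0 of the 8 genes passed the limma test, and 3 had an unadjusted p under 0.05. Across all genes, 0.0887% rose and 0.0443% fell, and 15.1% had an unadjusted p under 0.05. The median change of the 8 genes was -0.18, against 0.07 over all genes. The arrays did not overlap for 3 of the 8 genes, TGFB2, TGFBR3 and ID1, each lower in juvenile RFH, beside 35.8% of all genes. This comparison shares its juvenile RFH arrays with the first, so the changes of a gene in the 2 comparisons are not independent. A miss is not a sign of equal levels, and the 95% interval of each difference gives the changes it leaves possible.

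Of the ligands, TGFB1 read 7.82, 8.39 and 8.12 in juvenile RFH, against 8.11, 8.21 and 8.23 in juvenile WT arrays, a difference of -0.07 (95% interval -0.55 to 0.41, limma adjusted p = 0.931). TGFB2 read 9.06, 8.54 and 8.57 in juvenile RFH, against 9.18, 9.19 and 9.11 in juvenile WT arrays. The WT arrays were close together and all above the juvenile RFH arrays, with a difference of -0.43 (95% interval -0.81 to -0.06, unadjusted p of 0.0264 and limma adjusted p = 0.320). The dimmest TGFB2 probe set differed by -0.41 (limma adjusted p = 0.244), while the other 2 differed by 0.22 and -0.01. TGFB3 read 10.66, 10.77 and 10.61 in juvenile RFH, against 10.82, 10.61 and 10.43 in juvenile WT arrays, a difference of 0.06 (95% interval -0.49 to 0.61, limma adjusted p = 0.954).

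TGFBR3 read 6.32, 5.75 and 6.37 in juvenile RFH, against 6.59, 6.64 and 6.78 in juvenile WT arrays. The difference was -0.52 (95% interval -0.92 to -0.12), with an unadjusted p of 0.0157 and an adjusted p of 0.271 by limma. Without juvenile RFH array 2, the array with cardiac transcripts, it was -0.32 (limma adjusted p = 0.667). Over the 3 groups its mean was lowest in adult RFH (5.20 ± 0.24), higher in juvenile RFH (6.15 ± 0.35) and highest in juvenile WT leaflets (6.67 ± 0.10, SD, n = 4, 3 and 3), of which only the adult and juvenile RFH neighbours differed by the test. BAMBI read 9.65, 10.12 and 10.14 in juvenile RFH, against 9.56, 9.98 and 9.94 in juvenile WT arrays, an overlap with a difference of 0.15 (95% interval -0.34 to 0.63, limma adjusted p = 0.842). With each array left out, the BAMBI difference ran from 0.012 to 0.307.

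ID1 read 12.14, 12.22 and 12.13 in juvenile RFH, against 12.29, 12.49 and 12.57 in juvenile WT arrays, lower in all 3 arrays by 0.29 (SE 0.18, limma adjusted p = 0.559). ID2 read 8.16, 7.75 and 8.39 in juvenile RFH, against 8.81, 8.36 and 8.52 in juvenile WT arrays, with an overlap. Its difference was -0.46 (95% interval -0.85 to -0.08), with an unadjusted p of 0.0222 and an adjusted p of 0.305 by limma. Without juvenile RFH array 2 it was -0.29 (limma adjusted p = 0.716), and without any of the other 9 arrays it lay between -0.61 and -0.34. ID3 read 13.23, 13.09 and 13.18 in juvenile RFH, against 13.07, 13.10 and 13.17 in juvenile WT arrays, a difference of 0.05 (95% interval -0.15 to 0.26, limma adjusted p = 0.866). Relative to ID3, ID1 differed by -0.34 and ID2 by -0.52 with no overlap, and the exact permutation p of 0.1 in both pairs is the smallest that 3 against 3 arrays allow.

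None of the 45 other pathway genes passed the limma test between juvenile RFH and juvenile WT leaflets. Of the 45, 5 had an unadjusted p under 0.05, beside 15.1% of all genes. The arrays did not overlap for 5 that were higher and 9 that were lower in juvenile RFH, beside 35.8% of all genes in either direction. Neither count is thus more than the share over all genes. KLF11, a zinc-finger repressor induced by TGF-beta, differed by -1.37 (limma adjusted p = 0.114), with 6.23, 6.71 and 6.52 in juvenile RFH, against 7.16, 8.10 and 8.31 in juvenile WT arrays. ENG differed by 0.51 (limma adjusted p = 0.147), with 9.58, 9.75 and 9.66 in juvenile RFH, against 9.17, 9.12 and 9.16 in juvenile WT arrays. KLF10 differed by -0.70 (limma adjusted p = 0.207), BMPR1A, a BMP type I receptor, by -0.42 (0.173) and HES1 by -0.60 (0.315), each without overlap. The smallest p of each remaining role belonged to GDF9 with -0.26 (limma adjusted p = 0.423), SMAD1 with 0.19 (0.613), FSTL3 with -0.25 (0.706) and FKBP1A, which holds type I receptors inactive, with 0.23 (0.532). None of 55 cell type markers passed, and 41 of them were higher on average in juvenile RFH leaflets. The median change of the 55 was 0.23, against 0.07 over all genes. All 10 cardiac muscle markers were among the 41, with a median change of 1.70. Their list mean was 9.12 in juvenile RFH array 2, against 5.18 and 5.67 in juvenile RFH arrays 1 and 3 and 5.08 to 5.14 in juvenile WT arrays. The macrophage list mean did not overlap between the groups. For the poly-A controls the mean was 6.53 ± 0.01 in juvenile RFH, against 6.78 ± 0.07 in juvenile WT leaflets (SD, n = 3 each), also without overlap (exact permutation p = 0.1, the smallest possible). The part of the marker and control readings in these differences was not tested.

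For each gene, the 3 genes with the most similar profile were found by the root mean square difference between log2 profiles centred on their own means, over 10 arrays that share their 3 groups. This is a description with no test. For TGFB1 these were EPAS1 (0.141), MARCH3 (0.145) and PGM2 (0.148), all against a spread of TGFB1 itself of 0.73 (SD over arrays). For TGFB2 they were BTBD10, SLC3A1 and TMOD3 (0.0894 to 0.115), and for TGFB3 they were NAP1L3, KCNJ5 and GATA6 (0.109 to 0.138). The genes nearest to TGFBR3 were TTC14, COL5A2 and RPRD1A (0.162 to 0.178), and those nearest to BAMBI were SMNDC1, RETREG1 and TGIF1 (0.192 to 0.204). KANSL2, MOCS3 and COL3A1 were nearest to ID1 (0.167 to 0.173), NSUN5, PITRM1 and MRM2 to ID2 (0.180 to 0.205), and SIRT6, CAPNS1 and SCAMP3 to ID3 (0.0486 to 0.0578). Among all these genes, TGIF1 was the only 1 that also stood in the pathway list, and COL3A1 was also a valve interstitial marker.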

How the data were processed

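The deposited table of the authors gives a log2 expression value for each of 24123 probe sets of the Affymetrix porcine array in each sample, and the log2 scale was read from the values. Per the submitters' processing notes R 2.15.2 was used. How the signal was background-corrected, normalized and summarised is not given in the sources used here. After removal of 124 control probe sets, 23999 were tested. Of these, 10069 carry exactly 1 symbol in the array annotation, 198 several and 13732 none.

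Group means of all 10 arrays were fitted with limma 3.58.1 in R 4.3.3 (eBayes with no trend, 7 residual and 3.57 prior degrees of freedom), two-sided, with Benjamini-Hochberg adjustment over 23999 probe sets and a threshold of 0.05. Exact two-sided permutation tests, which enumerate all splits of the arrays, were used for pairs of genes and for control probe sets. The number of arrays, 3 or 4 per group, limits the precision. The fit was also run on simulated data with noise drawn independently for each probe set. Of 23999 probe sets 200 were changed, 100 by 1 and 100 by 2 on the log2 scale. Of the changes of 1, 78% were recovered for adult against juvenile RFH and 83% for juvenile RFH against WT, with 12 and 11 false calls. The number of changed probe sets differs from the numbers called in the data. These percentages therefore do not give the share of real changes found here.

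The genes and lists were chosen with earlier results of these data known. Named were all 8 genes, up to 3 called pathway genes per role and direction with the smallest p (the smallest p where none was called), and ACTA2, SMAD6, SMAD7, TGFBR1, TGFBR2, ENG and JUNB where measured. BGN and PMEPA1, and TGFB3's and other values by single array, were picked out after their values were seen. Alternatives were quantile, median and cyclic loess normalization, a filter on dim probe sets, averaging over the probe sets of a gene, only the 2 groups compared, a trended robust prior, array weights, a replicate block, a floor of 4 and each array left out. No sequences are given, since no table of them was used here.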

Additional observations from a re-analysis of the deposited data

Results flagged for a closer look

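In the 4 adult RFH arrays, 59 probe sets (the 14 of the 8 genes and 1 for each of 45 pathway genes) were examined for an array that stands far from the others, by the gap to the nearest array over the whole range, against Dixon's 95% critical value, which chance passes in about 1 in 20 groups. Of the 59 probe sets 2 did, which is no more than that share. ID1 stood at 12.14 in adult RFH array 2, and the next adult value was 11.44, a gap of 0.973 of the range. FKBP1A, which holds type I receptors inactive, stood at 10.60 in the same array, and the next adult value was 10.17, a gap of 0.858 of the range. That array also had the highest means of the macrophage (11.58), endothelial (9.59) and T and B cell (6.56) marker lists, and the part of these in the ID1 and FKBP1A values was not tested.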

How the results depend on the processing

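TGFB1 passed in all 20 alternatives (changes of 1.10 to 1.60) and TGFBR3 in all 19 that could be run, since the filter on dim probe sets removes it (-1.15 to -0.83). BAMBI passed in 18 of 20, ID2 in 10, ID3 in 7, ID1 in 6, TGFB3 in 2 and TGFB2 in 0. With values below 4 raised to 4, BAMBI had an adjusted p of 0.0504, and ID1 and ID2 were lost. The number of the 8 genes that rose in adult against juvenile RFH was 3, and with each array left out 1 to 3, and the number that fell was 3, against 1 to 2 with each array left out, 1 with only the 2 groups compared and 1 with the floor of 4. Pathway genes that fell numbered 6, and 3 to 8 with each array left out. Over all probe sets 4025 passed for adult against juvenile RFH, against 2308 with only the 2 groups compared and 2243 (without juvenile RFH array 1) to 4965 with each array left out. For juvenile RFH against WT 28 passed, against 1171 with array weights, 872 with only the 2 groups compared, 6 with the filter on dim probe sets, 10 with the floor and 2 to 71 with each array left out. Array weights called 1 pathway gene up and 3 down there, and the fit of only the 2 groups called 1 up and 2 down. These were ENG up (0.0134 and 0.0237), KLF10 down (0.0200 and 0.0237) and KLF11 down (0.0201 and 0.0454) in both, and BMPR1A down (0.0344) with array weights alone, while 0 of the 8 genes passed in any alternative. The causes were not tested.

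Changes near 0 turned sign. TGFB2 in adult against juvenile RFH was -0.0342 with the mean of its probe sets and -0.0271 to 0.232 with each array left out, below 0 without adult array 4, juvenile RFH array 2 or juvenile RFH array 3. In juvenile RFH against WT, TGFB1 was 0.115 with the mean of its probe sets and -0.212 to 0.0692 with each array left out (above 0 without juvenile RFH array 1). TGFB3 was -0.0487 with the mean and -0.0338 to 0.161 with each array left out (below 0 without WT array 3), and TGFB1 minus TGFB3 was 0.164 with the mean. ID1 minus ID2 in adult against juvenile RFH was -0.0519 with quantile normalization and -0.144 to 0.235 with each array left out. In juvenile RFH against WT it was -0.0254 to 0.341 with each array left out.

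Same-numbered arrays did not deviate together (correlations of -0.16 to 0.16 between adult and juvenile RFH and -0.07 to 0.19 between juvenile RFH and WT), so the numbers were not taken as pairs. With the replicate number as a block, 3922 probe sets passed for adult against juvenile RFH and 17 for juvenile RFH against WT. Under the block 2 of the 8 genes rose and 2 fell, TGFB3 had -0.86 and TGFB2 -0.0156. Only adult RFH has an array 4, so the block fits that array exactly. Its changes for adult against juvenile RFH therefore equal those without adult array 4, and it is not a separate check on them.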
